A study of Mus musculus with 2 samples.

Results

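The 46 genes described here encode the receptors through which serotonin, dopamine, noradrenaline and acetylcholine act. They were taken from 55450 gene rows by their symbols, as every gene of the Htr, Drd, Adra, Adrb, Chrm, Chrna and Chrnb receptor series with at least 1 protein-coding transcript. The set held 14 serotonin, 13 nicotinic, 6 alpha-adrenergic, 5 muscarinic, 5 dopamine and 3 beta-adrenergic receptor genes. A single further symbol matched, the antisense gene Chrna1os, and had no protein-coding transcript. The levels came from total RNA-seq of 2 female mice of the hybrid strain B6CASTF1/J, whose left cerebral cortex was taken at an age of 10 days, with 1 library for each animal from 300 ng of RNA and added ERCC spike-ins. B6CASTF1/J mice are first-generation hybrids of the C57BL/6J and CAST/EiJ strains. No treatment was labelled and there was no second group, so no condition was compared; with 2 animals an exact two-sided test cannot give a p below 0.5, and levels are given for each library, so that the pair of values shows the spread.

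The neurons that release these transmitters into the cortex lie mostly outside it, in the raphe nuclei, the locus coeruleus, the ventral midbrain and the basal forebrain, while the receptors are made largely by cortical cells. Most of the receptors couple to G proteins: Gq-coupled receptors activate phospholipase C, Gi-coupled receptors inhibit adenylyl cyclase and open potassium channels, and Gs-coupled receptors stimulate adenylyl cyclase. The nicotinic receptors and the serotonin Htr3 receptors are instead ion channels built from several subunits. In the cortex these systems are known for their part in arousal, attention and the maturation of circuits after birth.

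The gene tables held 29843278 expected reads in replicate 1 and 31006959 in replicate 2. The receptor genes took 19579 of them (0.0656%) in replicate 1 and 20172 (0.0651%) in replicate 2. Markers of cortical cells were present in both libraries, with 6 of 6 glutamatergic, 7 of 7 GABAergic and 6 of 6 astrocyte genes at 1 TPM or more (TPM is a level corrected for transcript length and library depth). None of 6 raphe and locus coeruleus markers and none of 6 basal forebrain cholinergic markers reached that level, and Fev, which defines serotonergic raphe neurons, had 0 reads in both libraries. Of markers of neighbouring regions, 8 of 10 striatal and 5 of 7 thalamic genes reached 1 TPM. So did 2 of 6 hippocampal and 1 of 6 choroid plexus genes. Over all protein-coding genes the share was 59.2%. Six3 and Isl1 of the striatal list and Gbx2 of the thalamic list were among those below 1 TPM. These counts do not establish that tissue of another region was present. In bulk tissue, fewer cells of a type and less RNA per cell cannot be told apart.

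Of the 46 receptor genes, 28 (60.9%) reached 1 TPM in both libraries, against 26.9% of all gene rows and 59.2% of protein-coding genes. The muscarinic family had 4 of 5 members at this level, the serotonin family 11 of 14, the alpha-adrenergic family 5 of 6, the nicotinic family 5 of 13, the dopamine family 2 of 5 and the beta-adrenergic family 1 of 3. The receptors that reached it were of modest abundance: their median was 8.16 TPM in replicate 1 and 7.72 TPM in replicate 2, against 17.1 and 15.9 TPM for all protein-coding genes that passed the same threshold. Chrm1 stood apart at the top and held 20.8% of the summed TPM of the receptors in replicate 1 and 21.7% in replicate 2. When the 46 genes were ordered by mean level, the ranges of the 2 libraries failed to overlap in only 12 of 45 neighbouring pairs, so the order within a stretch of similar genes was not resolved.

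**Figure D1:**
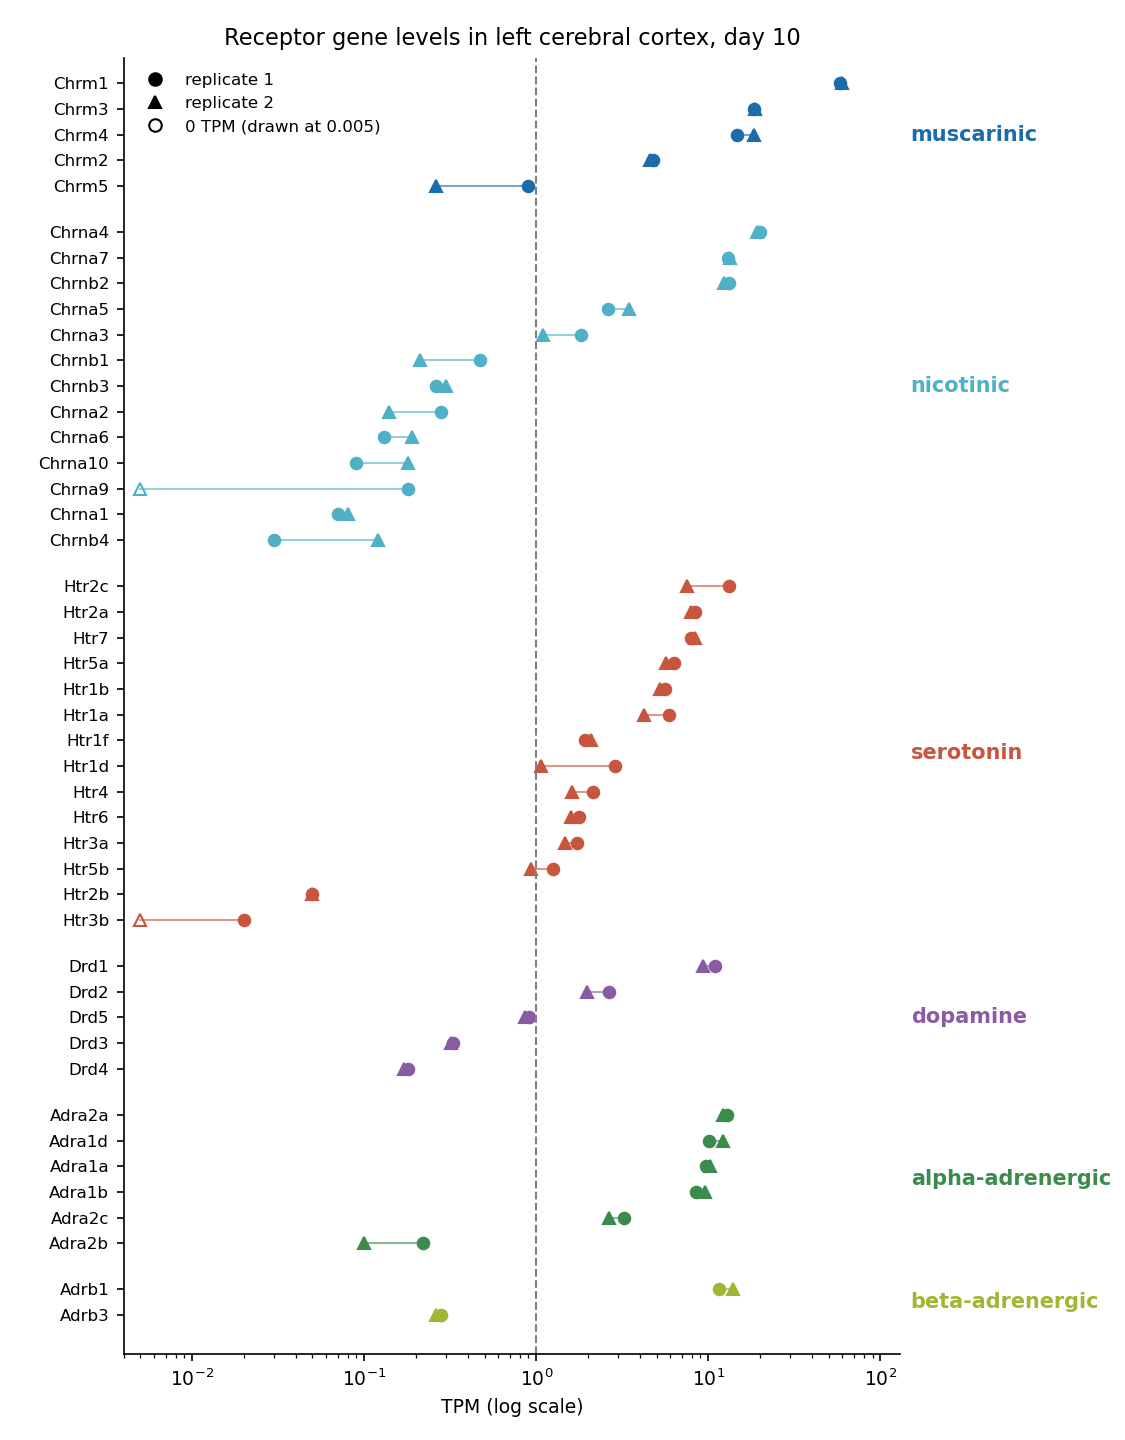
TPM (log scale) of 45 of the receptor genes in replicate 1 (circles) and replicate 2 (triangles), grouped by family and ordered by mean level; the dashed line marks 1 TPM and open symbols mark 0 TPM. Chrm1 lay highest at 58.5 and 59.4 TPM, and 8 of 13 nicotinic genes lay below 1 TPM.

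The muscarinic acetylcholine receptors were the most abundant family. Chrm1, which encodes the Gq-coupled M1 receptor of forebrain pyramidal neurons, had 58.5 TPM (5303 reads) in replicate 1 and 59.4 TPM (5587 reads) in replicate 2, 59.0 ± 0.65 TPM (SD, n = 2). This was above 91.1% of nuclear protein-coding genes and above every other receptor in the set in both libraries. Chrm3, the other Gq-coupled member detected, had 18.4 and 18.6 TPM in replicates 1 and 2. Chrm4, the Gi-coupled M4 receptor, had 14.6 TPM in replicate 1 and 18.5 TPM in replicate 2, so its range reached that of Chrm3. Chrm2, the Gi-coupled M2 receptor known as an autoreceptor on cholinergic terminals, was lower, at 4.77 and 4.61 TPM. Within each library Chrm1 exceeded Chrm2 12.3-fold on the mean log2(TPM + 0.1) scale, and the log2 ratio was 3.59 in replicate 1 and 3.66 in replicate 2. Chrm5, which is known from midbrain dopamine neurons, had 0.89 TPM (25 reads) in replicate 1 and 0.26 TPM (8 reads) in replicate 2. The annotated models of Chrm4 (1440 bases) and Chrm5 (1599 bases) hold only the coding sequence and its stop codon, so reads from their untranslated parts could not count toward these genes.

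The nicotinic genes fell into a small detected group and a larger group close to zero. Chrna4 and Chrnb2 encode the subunits of the high-affinity nicotinic receptor of the brain. Chrna4 had 19.98 TPM in replicate 1 and 19.1 TPM in replicate 2, and Chrnb2 had 13.3 and 12.4 TPM. Chrna7, whose subunit forms the homomeric, calcium-permeable receptor, had 13.1 and 13.4 TPM, below Chrna4 in both libraries (1.47-fold) and overlapping Chrnb2. Chrna5, an accessory subunit that joins Chrna4 and Chrnb2, followed at 2.62 and 3.45 TPM. Chrna3, the subunit of autonomic ganglia and the medial habenula, had 1.82 TPM (116 reads) in replicate 1 and 1.09 TPM (88 reads) in replicate 2. Its usual partner Chrnb4 had only 2 reads in replicate 1 and 9 reads in replicate 2, that is 0.03 and 0.12 TPM. Of 6 medial habenula markers, a list that holds Chrna3 and Chrnb4 themselves, 3 were detected: Nwd2 (30.7 and 27.1 TPM), Tac2 (8.76 and 7.47 TPM) and Chrna3. Gpr151 (10 and 12 reads) and Pou4f1 (3 and 2 reads) were near zero.

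The remaining nicotinic subunits were below 1 TPM in both libraries. They included the muscle subunits Chrna1 (6 and 7 reads) and Chrnb1 (18 and 9 reads), the cochlear hair-cell subunits Chrna9 (1 and 0 reads) and Chrna10 (4 and 1 reads), and Chrna6 (7 and 11 reads) and Chrnb3 (15 and 24 reads), which are known from dopaminergic and retinal neurons. Chrna2, a subunit restricted to few interneurons in rodent forebrain, had 16 reads in replicate 1 and 10 reads in replicate 2. A count of 0 reads for Chrna9 in replicate 2 allows up to 3.69 reads by counting error alone, the upper bound of the 95% Poisson interval. Several of these genes are neighbours: on mouse chromosome 9 Chrna5, Chrna3 and Chrnb4 lie within 54980880 to 55048779 (mm10), with gaps of 2331 and 1591 bases, and their mean levels were 3.04, 1.46 and 0.075 TPM. Chrnb3 and Chrna6 lie 3481 bases apart on chromosome 8, and both were below 1 TPM.

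In the serotonin family 11 of 14 genes were detected, at intermediate levels and with no single leader. Htr2c and Htr2a encode Gq-coupled receptors; Htr2c had 13.3 TPM (1144 reads) in replicate 1 and 7.48 TPM (704 reads) in replicate 2. Htr2a had 8.41 and 7.96 TPM, so that it lay below Htr2c in replicate 1 and slightly above it in replicate 2. Htr7, the most abundant Gs-coupled serotonin receptor gene here, had 7.90 and 8.32 TPM and exceeded Htr4 (2.15 and 1.61 TPM) 4.18-fold, or 2.08-fold over protein-coding transcripts alone. Among the Gi-coupled receptors Htr5a had 6.35 and 5.64 TPM, Htr1b, a presynaptic receptor, 5.57 and 5.24 TPM, and Htr1a, a somatodendritic receptor, 5.88 and 4.24 TPM. Htr1a and Htr1b changed places between the libraries. Htr1f (1.92 and 2.07 TPM), Htr1d (2.86 and 1.06 TPM) and the Gs-coupled Htr6 (1.76 and 1.60 TPM) were lower. Htr3a, the channel subunit known from a class of superficial interneurons, had 1.73 and 1.46 TPM, whereas Htr3b, which only forms channels together with Htr3a, had 1 read in replicate 1 and 0 in replicate 2. Htr5b lay just below the threshold, with 1.25 TPM in replicate 1 and 0.93 TPM in replicate 2, and Htr2b, known from heart and other peripheral tissues, had 2 reads in each.

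Htr2c is shown in sequence because its transcripts differ at a splice site inside the coding region. The transcript Htr2c-201 encodes the full receptor of 459 codons and Htr2c-207 lacks 95 bases of exon 5, which leaves 172 codons. In Htr2c-201 the segment follows 45 bases that both transcripts share (chrX:147169631-147169770, mm10, plus strand, GENCODE M21), with the 95 bases in capitals.
Htr2c exon 5 end: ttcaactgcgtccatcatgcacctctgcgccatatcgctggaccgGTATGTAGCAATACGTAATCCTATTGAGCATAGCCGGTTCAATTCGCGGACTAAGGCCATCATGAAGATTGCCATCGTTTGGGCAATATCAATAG
The capital letters hold the codons at which adenosines of Htr2c RNA are known to be edited to inosine by ADAR enzymes. Of the gene's TPM, Htr2c-201 held 89.96% in replicate 1 and 77.3% in replicate 2, and Htr2c-207 held 7.85% and 17.4%. In expected reads Htr2c-201 had 1037 in replicate 1 and 550 in replicate 2, while Htr2c-207 had 88.7 and 122. In these estimates the lower Htr2c level of replicate 2 was assigned to Htr2c-201 and not to Htr2c-207. Htr2c-202, which also has 459 codons, had 5.71 reads in replicate 1 and 23.2 in replicate 2. The division is an estimate, since reads outside the parts that differ cannot tell these transcripts apart. The alignment-free tables gave Htr2c-207 4.18% in replicate 1 and 15.02% in replicate 2. Editing itself was not measured by these tables.

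Of the 5 dopamine receptor genes, the detected members were Drd1 and Drd2. Drd1, the Gs-coupled receptor of striatal direct-pathway and deep cortical neurons, had 10.98 TPM (453 reads) in replicate 1 and 9.32 TPM (427 reads) in replicate 2. Drd2, the Gi-coupled target of antipsychotic drugs, had 2.66 TPM (122 reads) and 1.96 TPM (98 reads), so that Drd1 exceeded it 4.28-fold, with log2 ratios of 2.01 in replicate 1 and 2.19 in replicate 2. Drd5, the other Gs-coupled member, lay just below the threshold at 0.91 and 0.86 TPM. Drd3 (10 and 9 reads) and Drd4 (9 and 8 reads) were near zero. The Drd1 level depended on the transcript assignment: Drd1-203, a non-coding transcript of 405 bases, had 24.8 reads in replicate 1 and 22.3 in replicate 2 but held 39.5% and 38.2% of the gene's TPM. Protein-coding Drd1 transcripts alone summed to 6.65 and 5.77 TPM, which moved Drd1 from rank 11 to rank 14 of the 46 genes. The alignment-free tables assigned nothing to Drd1-203. The ratio of Drd1 to Drd2 was 2.76-fold in the alignment-free tables and 2.64-fold over protein-coding transcripts alone.

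Drd2 has only 1 annotated transcript in the set used, Drd2-201, and it contains the exon that distinguishes the long D2 receptor form from the short one. The exon is printed because these tables cannot divide Drd2 reads between those forms, which differ in the third intracellular loop. It is exon 6 of 8, of 87 bases, at chr9:49403194-49403280 (mm10, plus strand, GENCODE M21).
Drd2-201 exon 6: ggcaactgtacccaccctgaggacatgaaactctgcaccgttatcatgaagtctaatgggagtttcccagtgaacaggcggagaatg
Both Drd2 values therefore describe the gene as a whole, with 122 reads in replicate 1 and 98 in replicate 2.

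The adrenergic receptors were led by members of each signalling class. Adra2a, the Gi-coupled receptor that also acts as an autoreceptor on noradrenergic neurons, had 12.9 and 12.2 TPM, and Adrb1, the Gs-coupled beta receptor of forebrain neurons, had 11.6 and 13.9 TPM. The Gq-coupled alpha-1 genes lay close together, with Adra1d at 10.1 and 12.2 TPM, Adra1a at 9.63 and 10.3 TPM, and Adra1b at 8.44 and 9.56 TPM. Adra1a and Adra1d were each above Adra1b in both libraries, but only by 1.10-fold and 1.23-fold and with overlapping 95% credible intervals in the deposited tables in at least 1 library. Adra2c had 3.22 and 2.64 TPM, and Adra2a exceeded it 4.18-fold. Adra2b, known from the thalamus and vasculature, had 0.22 TPM (16 reads) in replicate 1 and 0.10 TPM (8 reads) in replicate 2. Adrb3, the adipose receptor, had 12 and 9 reads. Adra1b-202 and Adra1b-204, a non-coding and a coding transcript, have identical sequences and received the same 126 reads each in replicate 1 and 152 each in replicate 2, so the division between them carries no information.

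By family, the muscarinic genes held 34.6% of the summed receptor TPM in replicate 1 and 37.0% in replicate 2. The serotonin genes held 21.05% and 17.4%, the nicotinic genes 18.6% and 18.5%, and the alpha-adrenergic genes 15.8% and 17.1%. The beta-adrenergic genes (4.53% and 5.48%) and the dopamine genes (5.36% and 4.605%) were smallest, and their ranges overlapped. The serotonin range also overlapped that of the nicotinic genes and lay just above that of the alpha-adrenergic genes. By signalling class, the 9 Gq-coupled genes held 45.5% in replicate 1 and 45.9% in replicate 2, with Chrm1 as their largest part. The 14 Gi-coupled genes held 22.3% and 21.7%, the 15 channel subunits 19.2% and 19.0%, and the 8 Gs-coupled genes 13.0% and 13.4%. In TPM these 4 class shares did not overlap between classes, and the 2 libraries differed by at most 0.579 percentage points in any of them. The class shares were not computed by reads or in the alignment-free tables, so their order is given for TPM only.

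**Figure D2:**
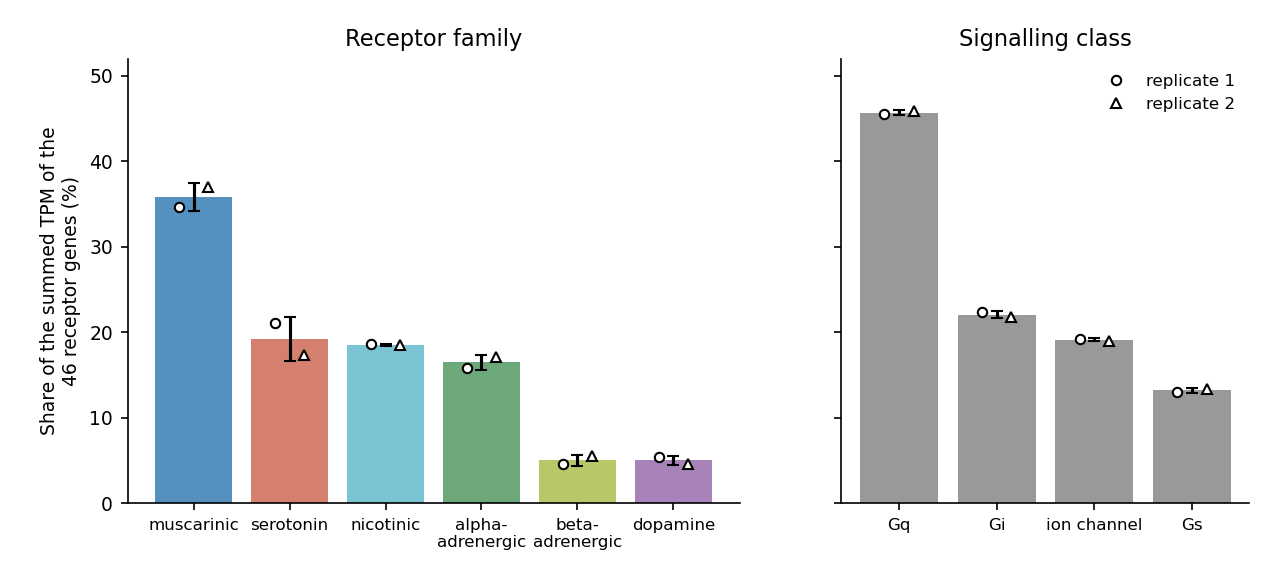
Share of the summed TPM of the 46 receptor genes by receptor family (left) and by signalling class (right); bars are means of the 2 libraries, whiskers are SD, circles are replicate 1 and triangles are replicate 2. The muscarinic family (34.6% and 37.0%) and the Gq-coupled class (45.5% and 45.9%) held the largest shares.

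Genes that act with these receptors were examined as short lists. Of 23 genes for transmitter synthesis, transport and breakdown, 10 reached 1 TPM in both libraries. The highest clear the transmitters, namely Ache, which hydrolyses acetylcholine (48.9 and 51.3 TPM), and the monoamine transporter Slc29a4 (38.2 and 35.01 TPM). Ddc, the decarboxylase of monoamine synthesis (2.22 and 2.87 TPM), and Slc18a2, the vesicular monoamine transporter (1.28 and 1.23 TPM), were among the detected genes. Most other synthesis enzymes and transporters of the source neurons were below 1 TPM, among them Th (0.90 and 0.50 TPM), Dbh (0.70 and 0.68 TPM), Tph2 (0.68 and 0.52 TPM), Chat (0.31 and 0.20 TPM), Slc6a4 (0.55 and 0.27 TPM), Slc6a2 (0.14 and 0.30 TPM) and Slc6a3 (0.16 and 0.06 TPM). The others below 1 TPM were Slc18a3, Slc5a7, Tph1, Hdc, Pnmt and, lowest, Slc18a1. Downstream, 11 of 12 G protein alpha subunits were detected, led by Gnas (969.9 and 965 TPM), Gnao1 (541 and 528 TPM) and Gnai2 (120.4 and 112 TPM), and Gna14 was not (0.12 and 0.08 TPM). All 14 listed effectors were detected, from Adcy1 (239 and 269 TPM), Plcb1 (78.0 and 77.3 TPM) and Kcnj9 (38.4 and 46.6 TPM) down to Plcb2 (1.62 and 1.22 TPM). All 14 RGS, arrestin and receptor kinase genes were detected too, with Rgs4 (147 and 144 TPM), Arrb1 (96.9 and 93.5 TPM) and Grk2 (76.0 and 87.4 TPM) highest and Grk4 (2.35 and 1.61 TPM) lowest.

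Nicotinic receptor chaperones and Ly6 proteins, which aid assembly or bind the receptors at the surface, were detected for 8 of 9 listed genes. Ly6h had 228 and 208 TPM, Ly6e 99.3 and 97.9 TPM and Lynx1 69.8 and 80.3 TPM, each above every nicotinic subunit in both libraries. Ly6g6e, at 1.15 and 0.89 TPM, was the member not detected in both. Of the related histamine and trace amine receptors 3 of 5 were detected: Hrh3 (17.7 and 20.4 TPM), Hrh1 (7.81 and 8.51 TPM) and Hrh2 (3.38 and 3.09 TPM), whereas Taar1 and Hrh4 had 1 read each in total.

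The receptor genes were also compared between the 2 animals. Read ratios were taken as replicate 2 over replicate 1 after TMM scaling, with 0.5 added to each scaled count. Of 23 receptor genes with a mean of 100 reads or more, 0 were 2-fold or more apart, against 0.355% of all genes at that depth, a share at which hardly any of 23 genes would be counted. No p is attached to this count, since there is 1 library for each animal and no second group. At a mean of 20 reads or more, 1 of 31 was, against 1.42% of genes; this was Htr1d, with 89 reads in replicate 1 and 36 in replicate 2 (log2 ratio -1.31). Their median log2 ratio was 0.03, against 0.01 over all genes at that depth. At 100 reads or more, the median absolute log2 ratio was 0.15 for receptor genes and 0.09 for all genes. The 2 sets were not matched for read depth, so this difference is not read as a property of the receptor genes.

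Among genes with 100 reads or more, Htr2c was farthest apart (log2 ratio -0.71, 1.64-fold lower in replicate 2), and 0.946% of genes at that depth were as far apart. Chrm4 followed in the other direction, with 367 reads in replicate 1 and 508 in replicate 2 (log2 ratio 0.45), as far as 3.22% of genes. Chrna3 (-0.41), Htr1a (-0.36) and Drd2 (-0.33) were lower in replicate 2, and Adra1d (0.38), Chrna5 (0.37) and Adrb1 (0.37) were higher. By family, 9 of 12 serotonin genes with 20 reads or more were lower in replicate 2, with a median log2 ratio of -0.10. Of all genes at that depth 47.7% were lower. With scaling by total reads 10 of the 12 were lower. Several of these ratios were small. Htr4 (-0.08), Htr6 (-0.09) and Htr3a (-0.11) were as far apart as 85.0%, 82.5% and 79.6% of genes with 20 to 100 reads. Of the 5 muscarinic genes, the 4 with 20 reads or more were higher in replicate 2, under each of the scalings tried and in the alignment-free tables. The fifth, Chrm5, has fewer reads and was lower in replicate 2 (25 reads in replicate 1 and 8 in replicate 2, log2 ratio -1.60). Of the 4, Chrm1 (0.06), Chrm3 (0.10) and Chrm2 (0.15) were as far apart as 64.5%, 45.4% and 27.7% of genes with 100 reads or more. These counts are not read as a direction of any family. In the other families the counts of higher and lower genes shifted by up to 2 genes with the scaling.

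Several marker lists differed between the libraries beside these genes. Of 9 striatal markers with 20 reads or more, 7 were lower in replicate 2 (median log2 ratio -0.34), and the summed level of the 10 striatal markers was 143 TPM in replicate 1 and 107 TPM in replicate 2. Drd1 and Drd2, which striatal neurons express strongly, were lower in replicate 2 by 0.10 and 0.33 on the log2 scale, while Chrm4, also known from the striatum, was higher. Of 4 choroid plexus markers with 20 reads or more 3 were higher in replicate 2, among them Ttr (3.98 TPM in replicate 1 and 9.70 TPM in replicate 2), and the 6 markers summed to 6.64 and 12.8 TPM; Htr2c, for which the choroid plexus is a known site, went the other way. Of 5 oligodendrocyte lineage markers 4 were higher in replicate 2, and the list summed to 221 TPM in replicate 1 and 357 TPM in replicate 2. In addition, all 6 glutamatergic markers were higher in replicate 2, with a median log2 ratio of 0.20. The part of these differences in the receptor values was not tested.

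**Figure D3:**
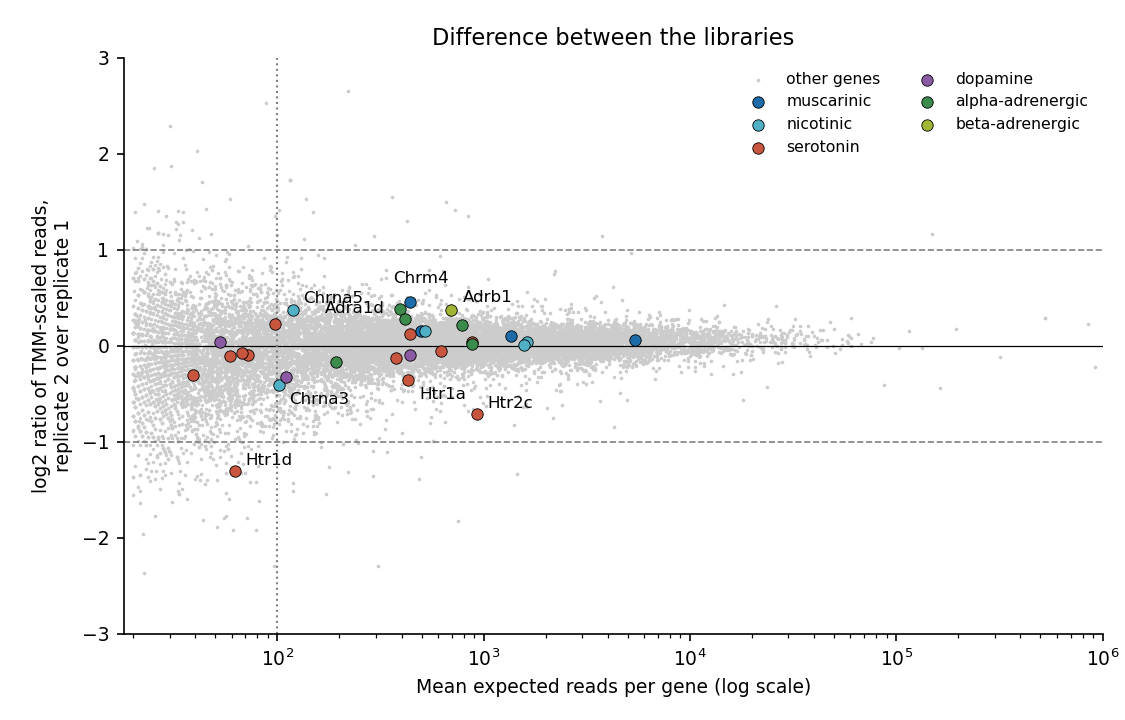
Log2 ratio of TMM-scaled expected reads, replicate 2 over replicate 1, against the mean reads per gene (log scale) for genes with 20 reads or more; receptor genes are coloured by family and other genes are grey, dashed lines mark 2-fold and the dotted line 100 reads. Htr1d (-1.31) lay beyond 2-fold and Htr2c (-0.71) was the farthest of the 23 receptor genes with 100 reads or more.

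Transcript use could be described for the 20 detected receptor genes with more than 1 annotated transcript. The other 8 have 1. The counts that follow were not taken over all genes, so none is read as particular to receptor genes. In the aligned tables the leading transcript was the same in both libraries for 16 of the 20, and differed for Adra1a, Chrna5, Htr4 and Htr7. The alignment-free tables gave another leader for 3 of the 20, namely Drd1, Chrna5 and Htr7. For Drd1, Drd1-201 led in the aligned tables (43.3% and 61.8%), and Drd1-202 held nearly all in the alignment-free tables. By mean aligned share the leading transcript was protein-coding in 19 of the 20. The exception was Htr7, where Htr7-204, annotated as a target of nonsense-mediated decay, held 40.5% of the TPM in replicate 1 and 31.3% in replicate 2; in replicate 2 the coding Htr7-202 held more, at 32.9%. Protein-coding transcripts summed to 3.78 and 4.21 TPM for Htr7. For Chrm1, Chrm1-201 held 54.5% and 61.2% and Chrm1-202 held 42.0% and 33.3%, and both encode the same 460 codons. Chrna3-201 held 55.7% in replicate 1 and 83.5% in replicate 2 on few reads, with Chrna3-202 at 34.9 and 8.67 reads. In Htr1d the short non-coding Htr1d-204, of 363 bases, held 39.9% and 41.5% of the TPM on 5.65 and 2.39 reads, and the coding transcripts summed to 1.72 TPM in replicate 1 and 0.62 TPM in replicate 2. The G protein-coupled and channel genes differ in structure: 16 of 31 G protein-coupled receptor genes had a leading transcript with 1 coding exon, and none of the 15 channel genes did.

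**Figure D4:**
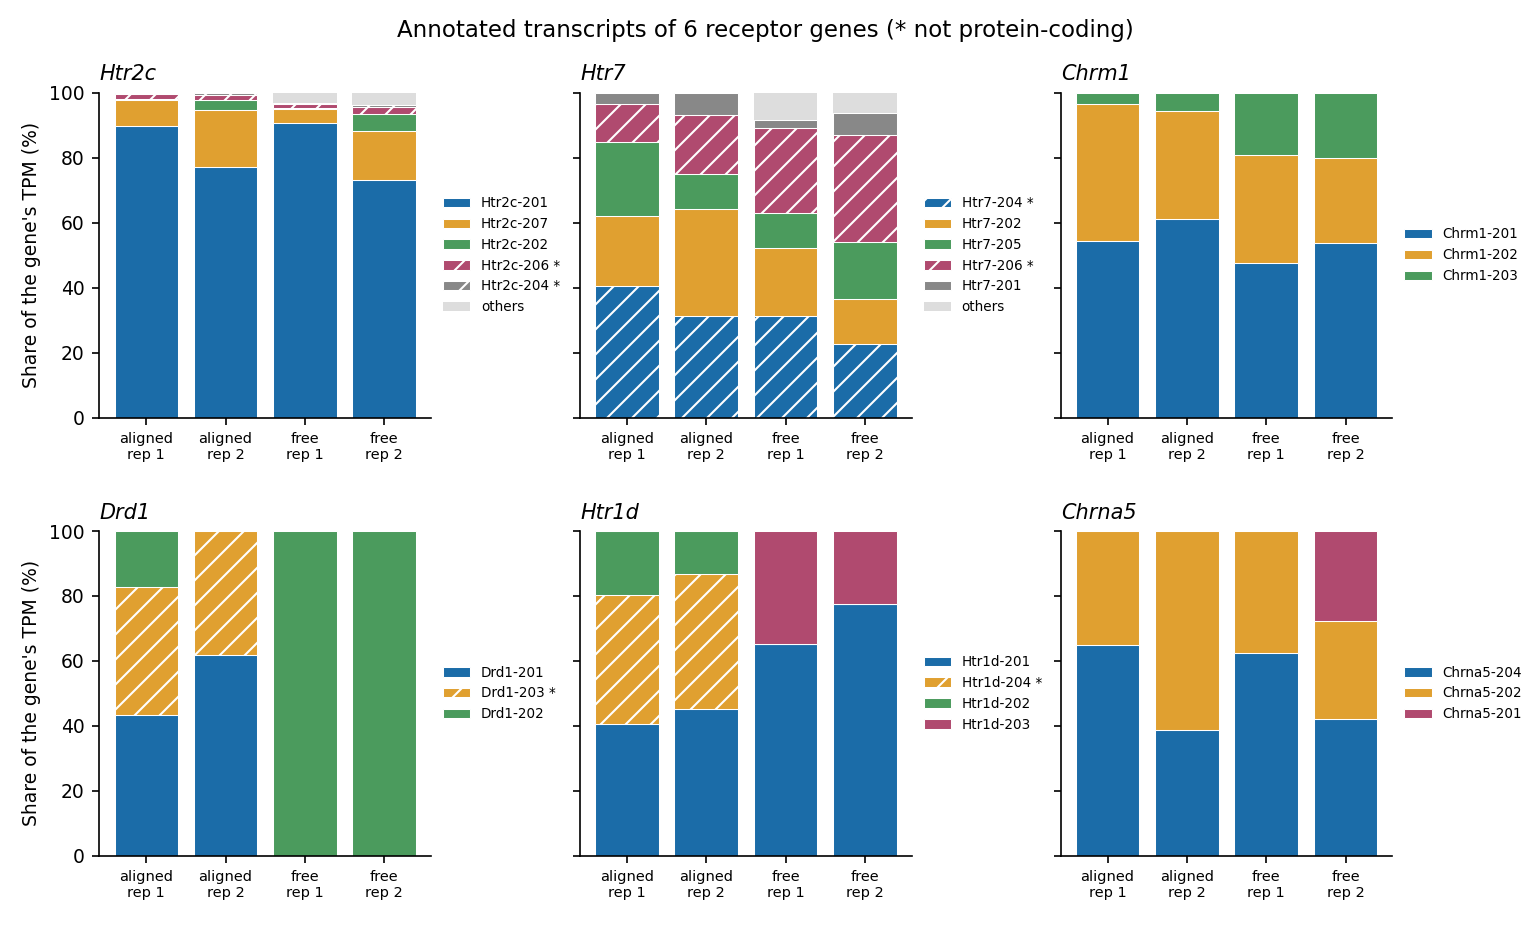
Share of each gene's TPM held by its annotated transcripts for 6 receptor genes, in the alignment-based tables (aligned) and the alignment-free tables (free) of replicates 1 and 2; hatched bars with an asterisk are transcripts not annotated as protein-coding. Htr2c-207 held 7.85% and 17.4% in the aligned tables of replicates 1 and 2, and the alignment-free tables gave no share to Drd1-203 or Htr1d-204.

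The levels were also set beside the letters of the promoters, taken from RefSeq (GRCm38.p6) as 300 bases from 250 before to 50 after each start. The table held 35 of the 46 genes; Adra1a, Adra1d, Adrb3, Chrm1, Chrna2, Chrna6, Chrnb3, Htr3a, Htr4 and Htr5b were among those without an entry. For genes with several starts the window with most CpG was used. The motif counted was CG, which reads the same on both strands and cannot overlap itself. The 23 detected receptor genes had a median of 23 CpG (range 5 to 46), and the 12 not detected had a median of 6.5 (range 1 to 38). Over all protein-coding genes the medians were 22 for those detected and 3 for those not detected. The difference is therefore not read as particular to receptor genes. More than 10 CpG were found in 19 of the 23 detected and in 5 of the 12 others, against 85.8% of detected protein-coding genes, 18.0% of protein-coding genes not detected and 41.4% of all promoters in the table. A pair of channel subunit genes illustrates the range, with CpG in capitals: Chrna7, at 13.1 and 13.4 TPM, has 35 (chr7:63212477-63212776, minus strand), and Htr3b, with 1 and 0 reads, has 2 (chr9:48964941-48965240, minus strand).
Chrna7 promoter: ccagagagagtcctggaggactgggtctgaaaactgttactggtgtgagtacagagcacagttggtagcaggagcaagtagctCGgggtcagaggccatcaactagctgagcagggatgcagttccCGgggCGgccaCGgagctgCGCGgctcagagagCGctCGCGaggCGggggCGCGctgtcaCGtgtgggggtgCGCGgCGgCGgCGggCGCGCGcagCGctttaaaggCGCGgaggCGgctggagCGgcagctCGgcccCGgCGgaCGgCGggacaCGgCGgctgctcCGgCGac
Htr3b promoter: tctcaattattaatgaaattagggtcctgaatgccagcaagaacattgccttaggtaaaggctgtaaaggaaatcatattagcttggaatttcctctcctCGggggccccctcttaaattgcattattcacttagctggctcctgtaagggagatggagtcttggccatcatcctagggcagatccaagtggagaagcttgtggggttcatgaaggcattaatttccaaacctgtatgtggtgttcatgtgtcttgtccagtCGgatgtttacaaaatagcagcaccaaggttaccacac
There were exceptions on both sides. Htr2c (5 CpG), Htr2a (6), Htr1a (7) and Adra2c (7) were detected with few CpG, and Drd5 (38), Adra2b (29), Chrnb1 (17), Drd4 (15) and Chrnb4 (14) were not detected although their windows held many. The count describes these windows and was not compared with any measure of promoter activity.

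**Figure D5:**
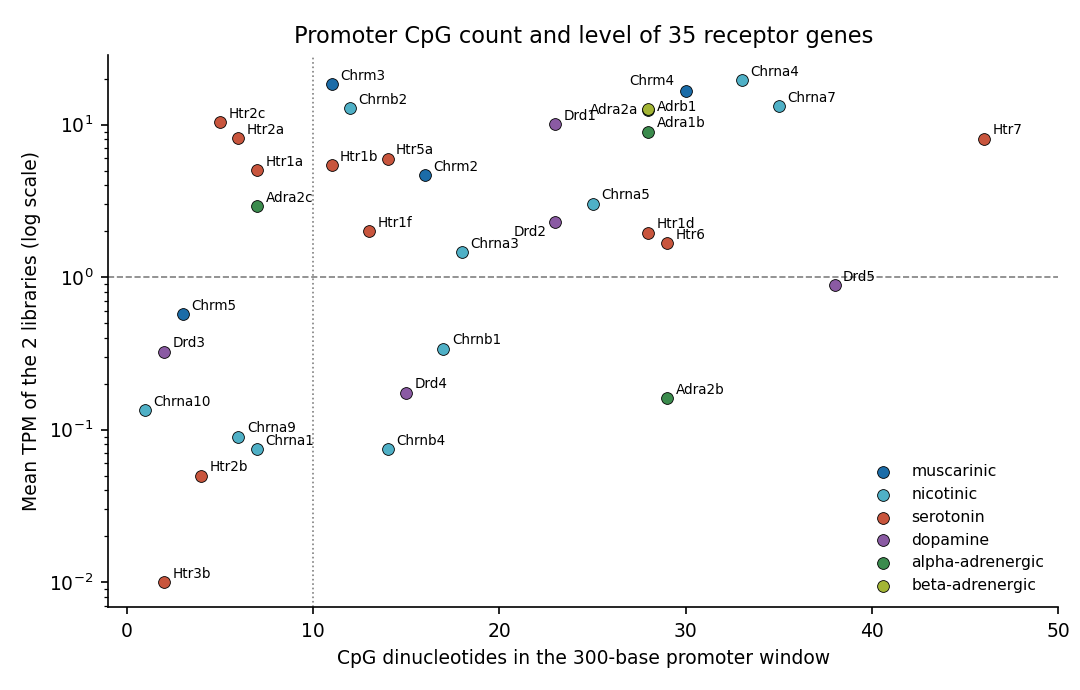
Mean TPM of the 2 libraries (log scale) against the number of CpG in the 300-base promoter window for the 35 receptor genes in the promoter table, coloured by family; the dashed line marks 1 TPM and the dotted line 10 CpG. Detected receptor genes had a median of 23 CpG and the others 6.5, against 22 and 3 for detected and undetected protein-coding genes.

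For 9 receptor genes the annotation places exons of another gene on the opposite strand, and the strand setting of the counting was not given in the sources used here. The gene with most reads among these neighbours was Adar, which shares 1365 bases with Chrnb2 (16.3% of its exon bases) and had 4171 and 4267 reads, against 1562 and 1588 for Chrnb2. Psmd1 shares 252 bases with Htr2b and had 3426 and 3450 reads, against 2 and 2 for Htr2b. D430036J16Rik shares 852 bases with Htr1b and had 90 and 79 reads, against 390 and 359 for Htr1b. The partners of Chrm1, Adra1d, Chrm2, Drd5, Adrb3 and Chrna10 had at most 29 reads in either library.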

How the data were processed

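Total RNA-seq libraries from the left cerebral cortex of 2 mice were used as the authors' deposited tables. The gene and transcript tables hold expected counts and TPM deposited by the authors, with posterior mean TPM and, in the deposited columns read as signal, 95% credible bounds. The deposited alignment-free tables hold estimated counts and TPM for each transcript. The labels name mm10 and spike-ins for stranded libraries; the quantifiers and their versions were not given in the sources used here. Symbols and transcript types came from the transcript names in the alignment-free tables, and coordinates and exons from GENCODE M21.

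Receptor genes and gene lists were chosen with earlier results of these data known. Every member may be named; of other lists the 3 highest, the lowest and those under 1 TPM were, except a few genes that are not reported here. Each gene is given per library. Detection meant 1 TPM in both libraries. Pair ratios used log2(TPM + 0.1). Between libraries, expected counts were scaled with TMM factors from counts rounded to whole numbers (edgeR 4.0.16), with DESeq2 1.42.0 size factors and total reads as alternatives. The ratio step was tested on simulated data. No test across genes was made. Python 3.11.15, pandas 2.3.3 and R 4.3.3 were used. Limits from 0 reads cover counting error only.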

Additional observations from a re-analysis of the deposited data

How the results depend on the processing

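No paired analysis was possible because there is a single group. The number of receptor genes detected was 28, and 17 at 5 TPM, 31 at 0.5 TPM, 31 in the alignment-free tables, 31 with TPM rescaled over nuclear protein-coding genes (the same 3 genes added in each, Htr5b and Drd5 among them), 28 with posterior mean TPM and 28 or 29 from 1 library alone. Counting protein-coding transcripts only, an alternative chosen after seeing the data, gave 27, without Htr1d. The share of all genes detected was not computed under these other settings. Their counts are therefore not read as particular to receptor genes. The muscarinic share was 35.8% and became 38.4% in the alignment-free tables and 39.0% by reads not corrected for length. The nicotinic share was 18.5% and became 18.3% in the alignment-free tables, 19.1% with posterior mean TPM, 20.2% by reads and 19.2% with coding transcripts only. The dopamine share was 4.98% and became 3.54% in the alignment-free tables, 3.13% by reads and 3.77% with coding transcripts only. By reads the alpha-adrenergic share was 13.5% and the beta-adrenergic share 3.70%, against 16.5% and 5.01% by TPM. The cause of these shifts was not tested. Receptor genes 2-fold apart numbered 0 at 100 reads, also with DESeq2 size factors, total reads and the alignment-free tables, 1 at 20 reads and 6 with no filter, where 11.2% of all gene rows were. The median log2 ratio ran from -0.01 with total reads to 0.05 in the alignment-free tables. No pair ratio that lay on 1 side in both libraries changed sign in the alignment-free tables or over protein-coding transcripts alone. Adding 1 TPM or leaving out 1 library could not change the sign of such a pair. Adding 1 TPM in place of 0.1 moved 13 pair ratios by more than their SD and left 7 within it. With 1 TPM added, Chrm1 exceeded Chrm2 10.5-fold and Adra2a exceeded Adra2c 3.45-fold. Drd1 then exceeded Drd2 3.38-fold and Htr7 exceeded Htr4 3.18-fold. The ratio of Drd1 to Drd2 was 4.28-fold, 2.76-fold in the alignment-free tables and, in an alternative chosen after seeing the data, 2.64-fold over protein-coding transcripts; that of Htr7 to Htr4 was 4.18-fold and 2.08-fold over protein-coding transcripts. Alignment-free TPM were a median of 1.44 times the aligned TPM for detected receptor genes and 1.503 times for detected protein-coding genes, and below 1 for Drd1 and Htr1d. Of the receptor genes, 18 fell short of 1 TPM in at least 1 library and 15 had under 20 reads on average. With 2 animals, such low genes could not be ordered.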
